A study of Homo sapiens with 18 samples.

Results

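The oncogene MYC and its neighbours TRIB1, LRATD2 (formerly FAM84B), POU5F1B and PVT1 lie in a stretch of chromosome band 8q24 that is known to be amplified in HL-60 cells. Peaks of H1.2 and H1.5, isotypes of the linker histone H1, were examined over these 5 genes, out of 63827 annotated genes on chromosomes 1 to 22 and X, and over the 5 Mb of chromosome 8 that hold them (chr8:126000001-131000000, hg19). The genes were chosen by name and position, and the choice was made with the peak coverage of this region already known. The peaks at the genes and the coverage of the region are therefore given as a description, without a test. The region was cut into 50 windows of 100 kb and compared with the 1381 windows in the rest of chromosome 8 that held at least 50% known bases.

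HL-60/S4 is an established human myeloid leukemia cell line grown in suspension, and all cells were undifferentiated. In xChIP-seq, fixed chromatin was sonicated first and the antibody against H1.2 or H1.5 was added to the fragments. In xxChIP-seq, the antibody was bound inside fixed and permeabilized cells and held there by a second fixation, and sonication came last. With 2 protocols and 2 antibodies there were 4 groups of 3 replicates, 12 samples in all, and 6 further samples of Input were left out of the analysis. The values are the positions of the peaks merged over the 3 replicates of a group, so there is 1 list per group, no spread between replicates and no read number. The depth behind each peak is unknown. Copy number was not measured, the sources used here do not state how Input entered the peak calling, and DNA copies and H1 enrichment cannot be told apart in these lists.

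Linker histones bind where DNA enters and leaves the nucleosome and help to compact the chromatin fiber, and H1.2 and H1.5 are among the somatic isotypes of human cells. MYC encodes a transcription factor that binds DNA as a dimer with MAX and drives cell growth. Its amplification is a classic feature of HL-60, and it sits in a gene-poor part of the long arm where PVT1, a long noncoding RNA gene (lncRNA), lies directly downstream. The comparison of the protocols was meant to show which H1 epitopes the antibody can reach in intact fixed chromatin and which only after fragmentation. The protocols also differed in the second fixation, the sonication settings and the immunoprecipitation steps. These differences cannot be told apart in the lists.

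The MYC and TRIB1 genes were covered completely by both xChIP lists and by neither xxChIP list, whereas LRATD2 had no peak in any list. POU5F1B and PVT1 were covered in small part. Around the genes, H1 peaks of xxChIP-seq filled long stretches without protein-coding genes, and these alternated with stretches that held no peak of any list. In total, peaks covered 19.1% of the region in xChIP H1.2, 15.6% in xChIP H1.5, 32.9% in xxChIP H1.2 and 27.8% in xxChIP H1.5. The rest of chromosome 8 was covered to 26.5%, 16.1%, 14.8% and 13.0%, in the same order. The ratio of the region to the rest was thus 0.720 for H1.2 and 0.968 for H1.5 in the xChIP lists, and 2.23 for H1.2 and 2.15 for H1.5 in the xxChIP lists. The excess in the xxChIP lists was one of covered bases: with peaks counted by their centres the ratios were 0.409 and 0.590, and with peaks under 20 kb alone they were 0.534 and 0.768. Against chromosomes 1 to 22 and X without the region, the xxChIP ratios were 1.63 and 1.62.

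**Figure D1:**
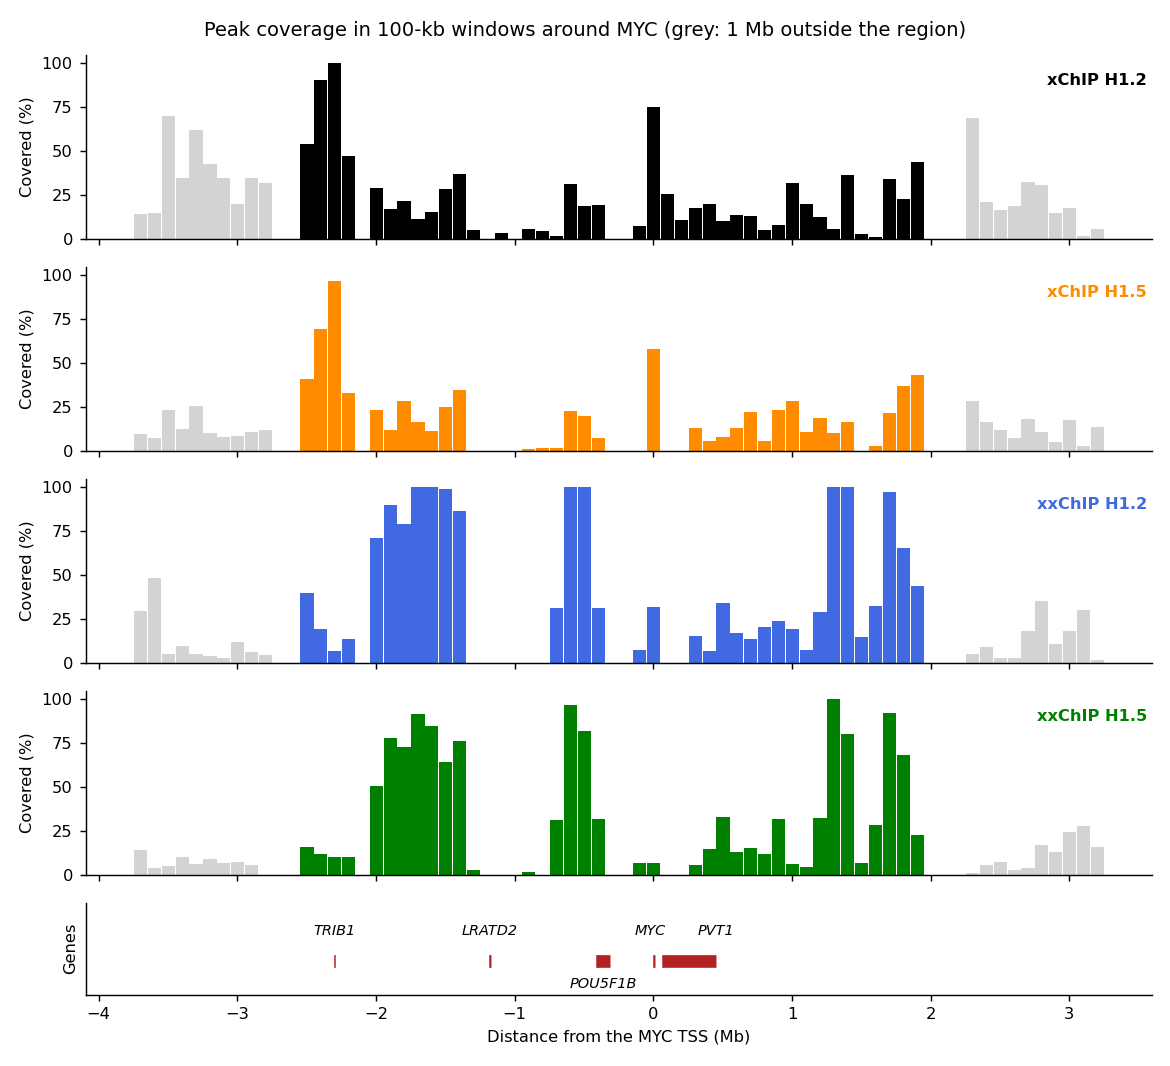
Percent of each 100-kb window covered by peaks (y axes, 0 to 100%) against the distance of the window from the MYC transcription start site (x axis, Mb), with 1 panel per merged list and the 5 genes in red below. Coloured bars are the 50 windows of the region and grey bars are 1 Mb on either side. Both xxChIP lists reach 100% in windows that hold none of the 5 genes. The xChIP lists have their highest bars at TRIB1, in the window beside it and at MYC, and blocks of empty windows occur in all 4 panels.

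The MYC gene (ENSG00000136997, chr8:128747680-128755197, plus strand, 7518 bp) lay inside a single xChIP peak of each isotype. The xChIP H1.2 peak ran from 128701919 to 128771919 and was 70001 bp long. The xChIP H1.5 peak ran from 128715402 to 128771690 and was 56289 bp long, and a second short peak from 128701985 to 128703471 began 66 bp inside the start of the H1.2 peak. The right ends of the long H1.2 and H1.5 peaks differed by 229 bp. The domain that held MYC was therefore drawn with nearly the same outer borders by the 2 isotypes, although the H1.5 peaks left part of its upstream side uncovered.

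In xxChIP H1.2 this domain was broken up around MYC. Its 7 peaks within 50 kb of the transcription start site (TSS) covered 45.2% of the xChIP H1.2 domain, and they stopped 1322 bp upstream of the TSS and began again 9866 bp downstream of it. The gap between chr8:128742513-128746358 and chr8:128757546-128765952 contained the whole MYC gene. In xxChIP H1.5 there was 1 peak within 50 kb, chr8:128699896-128706833, which covered 7.02% of the domain and ended 40847 bp upstream of the TSS. The next xxChIP H1.5 peak downstream was 266997 bp away. Of the 14 annotated transcript starts of MYC, 14 had a peak within 1000 bp in xChIP H1.2 and 14 in xChIP H1.5, against 0 in xxChIP H1.2 and 0 in xxChIP H1.5.

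TRIB1 (ENSG00000173334, chr8:126442600-126450645, plus strand, 8046 bp) encodes a pseudokinase that brings the ubiquitin ligase COP1 to its substrates, among them the myeloid factor C/EBPα. It showed the same pattern as MYC in larger domains. The xChIP H1.2 peak over TRIB1 ran from 126321086 to 126547334, and its 226249 bp made it number 37 by length of the 142645 peaks in that list on chromosomes 1 to 22 and X. The xChIP H1.5 peak over the gene was 101306 bp long, number 19 of 139701, and was followed after a short gap by another of 56855 bp. Both xxChIP lists were without a peak in the gene. The nearest xxChIP H1.5 peak was 1123 bp long and ended 1648 bp upstream of the TSS, and the nearest xxChIP H1.2 peak began 26191 bp downstream. Of the 4 transcript starts, 4 had a peak in each xChIP list and 0 in each xxChIP list.

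Complete cover by both xChIP lists together with no xxChIP peak in the gene was found for 95 of 20098 protein-coding genes, or 0.473%, and MYC and TRIB1 were 2 of these 95. The pattern was examined after the peaks at these genes had been seen. Complete cover also depends on gene length, which this share does not take into account. Beyond the gene bodies, the 10 kb on either side of the TSS were covered to 100% in both xChIP lists for both genes. For MYC they were covered to 27.3% in xxChIP H1.2 and 0% in xxChIP H1.5, and for TRIB1 to 0% and 5.61%. The isotype with xxChIP bases near the start was thus H1.2 at MYC and H1.5 at TRIB1.

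**Figure D2:**
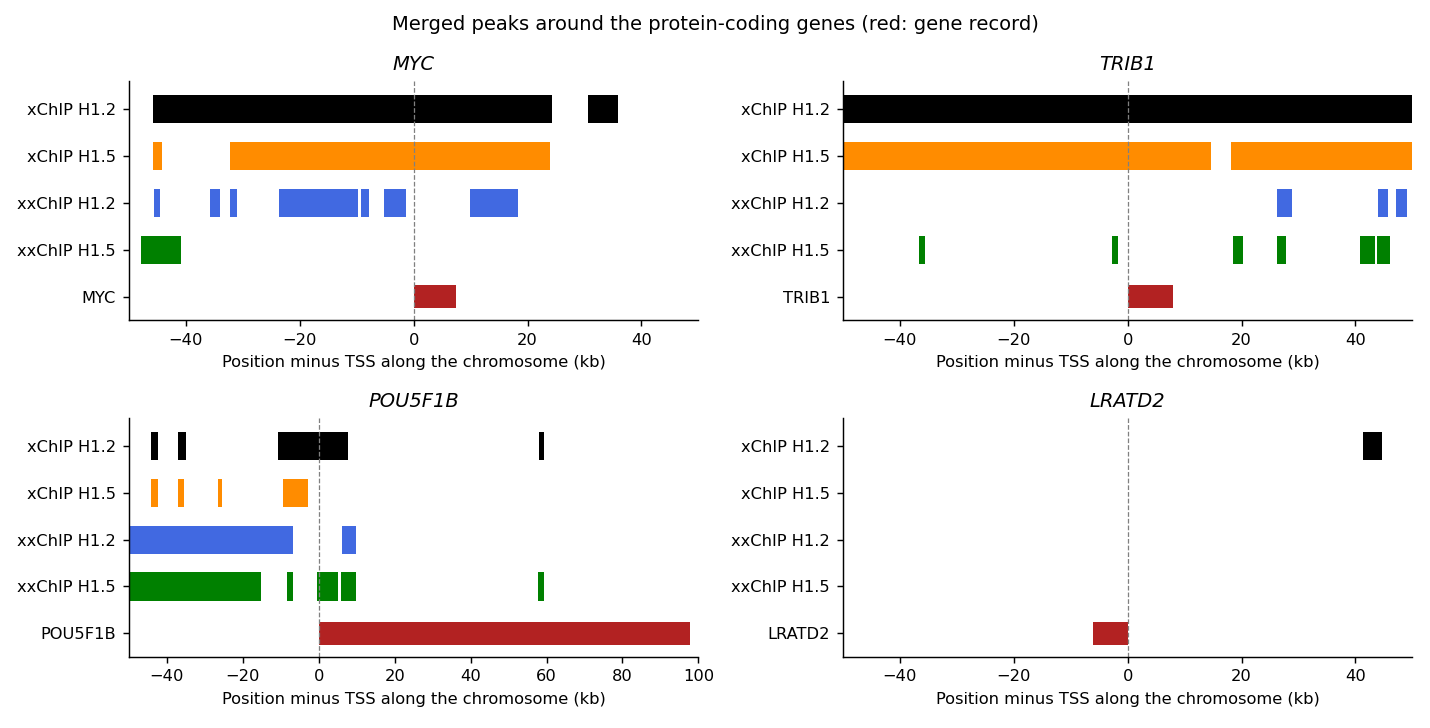
Merged peaks around MYC, TRIB1, POU5F1B and LRATD2, drawn to scale against the position relative to the TSS along the chromosome (x axes, kb), with 1 row per list and the gene record in red. The red MYC and TRIB1 bars lie wholly under both xChIP rows and in a gap of both xxChIP rows, POU5F1B has most of its peaks near the start of its long record, and the single bar in the LRATD2 panel is an xChIP H1.2 peak that starts 41.4 kb from the TSS.

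LRATD2 (ENSG00000168672, chr8:127564688-127570723, minus strand, 6036 bp), a gene with an LRAT-like domain, had no peak in its body or within 10 kb of its TSS in any list. The absence of any peak within 10 kb of the TSS was shared by 189 of 20098 protein-coding genes, 0.94%. The nearest peak of any list was an xChIP H1.2 peak 41364 bp from the LRATD2 TSS, and only 9 protein-coding genes were farther from a peak, since LRATD2 ranked 10 of 20098 by this distance. The nearest xChIP H1.5 peak was 207545 bp away, the nearest xxChIP H1.2 peak 184380 bp and the nearest xxChIP H1.5 peak 95809 bp. The gene thus lay in a stretch of 137172 bp, chr8:127474915-127612086, without a peak in any of the 4 lists.

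POU5F1B (ENSG00000212993, plus strand) is a retrogene copy of POU5F1, the gene of the pluripotency factor OCT4. Reads shared with such copies cannot be placed uniquely, and the lists keep uniquely mapped reads, so an absence of peaks in its copied part is uncertain. The gene record runs over 97884 bp, chr8:128334428-128432311, because of a far upstream transcript start, and its canonical start is at 128428112. Peaks covered 9.01% of the record in xChIP H1.2, 0% in xChIP H1.5, 3.87% in xxChIP H1.2 and 10.8% in xxChIP H1.5. The 10 kb on either side of the upstream start were covered to 88.6%, 31.9%, 34.5% and 56.8% in the same order. Farther along the record there was 1 short peak in xChIP H1.2, which began 58.1 kb from that start, and 1 in xxChIP H1.5, which began 57.8 kb from it. The upstream start was the one gene start among the 5 with a peak within 1000 bp in an xxChIP list, xxChIP H1.5. No list had a peak at the canonical start, which lay in a peak-free stretch of 295344 bp.

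PVT1 (ENSG00000249859, chr8:128806772-129199347, plus strand, 392576 bp) was covered to 18.5% by 16 peaks of xChIP H1.2, to 4.68% by 8 peaks of xChIP H1.5, to 5.51% by 7 peaks of xxChIP H1.2 and to 5.12% by 7 peaks of xxChIP H1.5. Its start lay under an xChIP H1.2 peak of 21824 bp, chr8:128805653-128827476. The other 3 lists had no peak within the first 200 kb of the gene: the first xxChIP H1.2 peak began 202717 bp from the TSS, the first xChIP H1.5 peak 206701 bp and the first xxChIP H1.5 peak 207905 bp. In steps of 50 kb from the start, xChIP H1.2 covered 41.4%, 7.61%, 0% and 21.8% of the first 4 steps. In the next step, from 200 to 250 kb, all 4 lists had peaks, which covered 32.4% in xChIP H1.2, 22.1% in xChIP H1.5, 18.1% in xxChIP H1.2 and 7.40% in xxChIP H1.5. Of 132 transcript starts of PVT1, 62 had a peak within 1000 bp in xChIP H1.2, 1 in xChIP H1.5, 7 in xxChIP H1.2 and 0 in xxChIP H1.5. These starts share one gene and many lie close together, so they are not independent.

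**Figure D3:**
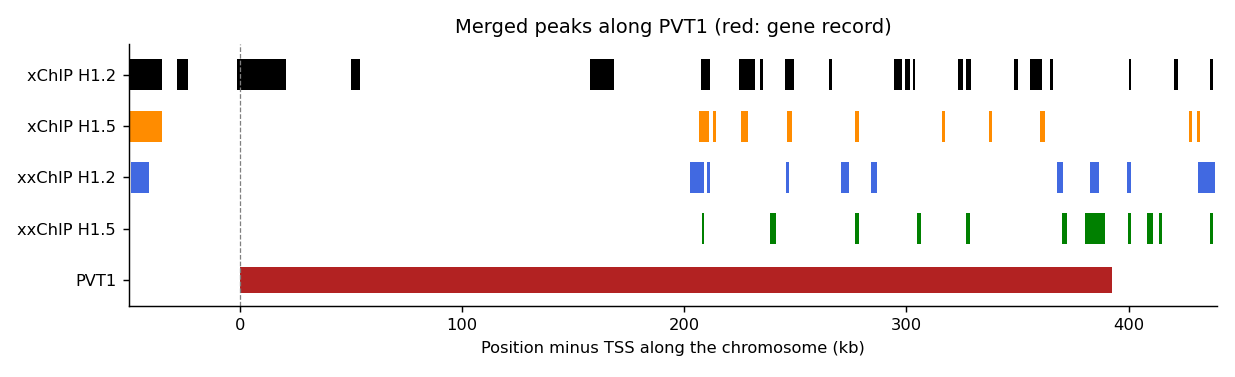
Merged peaks along PVT1, drawn to scale against the distance from its TSS (x axis, kb), with 1 row per list and the gene record in red. Over the first 200 kb of the gene the xChIP H1.2 row holds bars and the other 3 rows are empty, and in the distal part all 4 rows hold scattered bars.

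The promoters, taken as the TSS of the gene record and 1000 bp on either side, had a peak for 4 of the 5 genes in xChIP H1.2, where LRATD2 was without one. Over all 20098 protein-coding genes the share was 48.2%, and over 18592 lncRNA genes 37.7%. In xChIP H1.5 there were peaks at 2 of the 5 promoters, MYC and TRIB1, beside 21.6% of protein-coding and 20.3% of lncRNA promoters. In xxChIP H1.2 there were 0 of 5, beside 8.78% and 18.5%. In xxChIP H1.5 there was 1 of 5, POU5F1B, beside 7.92% and 16.6%. For the 700 other protein-coding promoters of chromosome 8 the shares were 47.9%, 20.3%, 6% and 6.43%. With 5 genes, chosen with these peaks known, the counts are not set apart from those shares by any test.

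**Figure D4:**
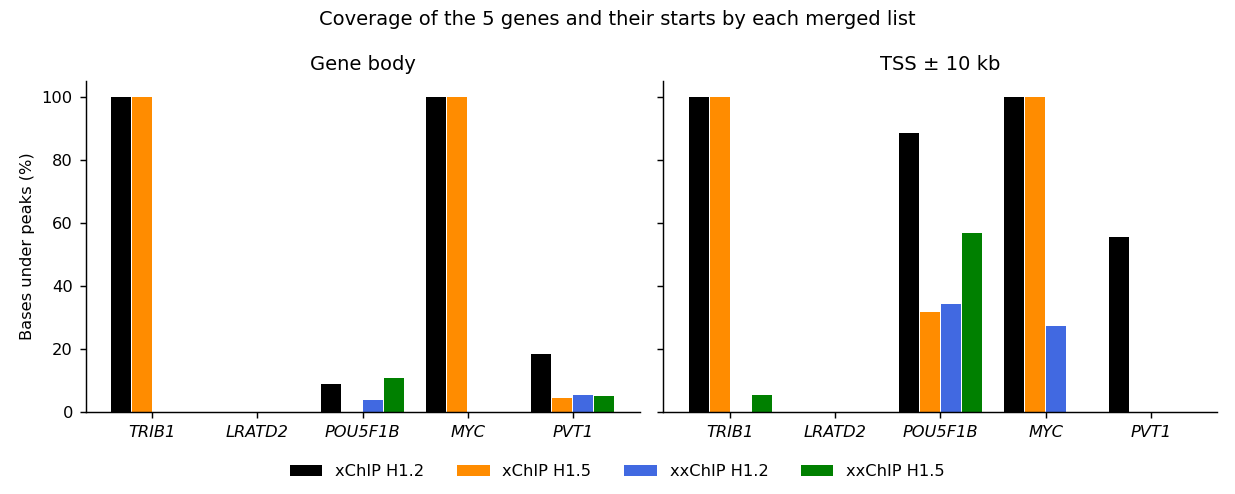
Percent of bases under peaks (y axis) in the gene body (left) and in the 10 kb on either side of the TSS (right) of the 5 genes, ordered along the chromosome, with 1 bar per merged list. TRIB1 and MYC stand at 100% in both xChIP lists and both panels, LRATD2 has no bar, and POU5F1B and PVT1 have low bars over the gene body; there are no error bars because each list merges its 3 replicates.

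The promoters themselves differed in base composition. The TSS with 1000 bp on either side held 70.5% GC in TRIB1, 54.9% in MYC, 56.9% in LRATD2, 58.6% in PVT1 and 42.9% in POU5F1B. The ratio of observed to expected CpG, which is high in CpG islands, was 0.843 in TRIB1, 0.724 in MYC, 0.708 in PVT1, 0.637 in LRATD2 and 0.0763 in POU5F1B. LRATD2, without a peak, and MYC, under the long xChIP peaks, were close in both measures, while POU5F1B, with a peak of xxChIP H1.5 at its start, had the lowest values of both.

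The partners and antagonists of MYC were compared with it in the same way. The list of 12 genes held the paralogs MYCN and MYCL, the common partner MAX, the repressors MXD1, MXI1, MXD3, MXD4 and MNT, the MAX-binding factor MGA, and MLX with its partners MLXIP and MLXIPL. A promoter peak was found for 6 of 12 in xChIP H1.2, 2 of 12 in xChIP H1.5 (MLXIP and MLXIPL), 0 of 12 in xxChIP H1.2 and 1 of 12 in xxChIP H1.5 (MXD1). These counts stood beside 48.2%, 21.6%, 8.78% and 7.92% of all protein-coding promoters, and with 12 genes they are near those shares. MAX had a promoter peak in no list, and neither did MYCN or MYCL. The median cover of the 10 kb on either side of the TSS was 34.5%, 26.3%, 2.00% and 0% in the H1.2 and H1.5 lists of xChIP-seq and then those of xxChIP-seq, beside 32.4%, 11.1%, 6.25% and 5.23% over all protein-coding genes.

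By the cover of these 10 kb in the 4 lists, the protein-coding genes most like MYC among 20097 others were ENSG00000205236 and UPK3BL1 on chromosome 7, which have the same values and a summed difference from MYC of 6.03 percentage points, and ZNF786 on chromosome 7, at 6.99. All 3 were covered to 100% in both xChIP lists. In xxChIP H1.2 they stood at 21.3%, 21.3% and 25.9%, and in xxChIP H1.5 at 0%, 0% and 5.57%. MYC shared this pattern across 4 values with these genes, and nothing follows from it about their function.

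Among the other protein-coding genes that reach into the region, SQLE, the squalene epoxidase of cholesterol synthesis, WASHC5, a subunit of the WASH complex, and GSDMC, a gasdermin, had no peak in any list. NSMCE2, the SUMO ligase of the SMC5/6 complex, was covered to 45.0%, 32.6%, 21.4% and 10.1% in the H1.2 and H1.5 lists of xChIP-seq and then those of xxChIP-seq, with no peak at its promoter. CYRIB, a regulator of the Rac1 pathway that crosses the right border of the region, was covered to 15.6% in xChIP H1.2 and 5.22% in xChIP H1.5 and had no xxChIP peak. Its promoter, which lies beyond that border, was covered to 100% in xChIP H1.2 and to 0% in xChIP H1.5.

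The noncoding genes from TRIB1 to the end of PVT1 differed in which lists covered them. Of 20 lncRNA genes other than PVT1, 9 had a peak in xChIP H1.2, 10 in xChIP H1.5, 12 in xxChIP H1.2 and 13 in xxChIP H1.5, beside 61.6%, 47.6%, 46% and 44% of all 18592 lncRNA genes. A peak in none of the lists was found for 7 of 20, beside 20.4%. Cover of at least 90% was reached by 2 in xChIP H1.2, 0 in xChIP H1.5, 7 in xxChIP H1.2 and 5 in xxChIP H1.5, beside 15%, 3.29%, 2.86% and 2.14%. The 20 genes are longer than most, with a median of 17221.5 bp against 6216 bp, and many of them lie under the same long peak, so they are not independent.

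The 2 lncRNA genes covered to at least 90% in xChIP H1.2 were CASC11, which overlaps the start of MYC, with 93.7%, and ENSG00000253111 next to TRIB1, with 91.6%. The 7 in xxChIP H1.2 were LINC00861 with 94.95% and ENSG00000253470, ENSG00000254227, ENSG00000244791, CASC19, PRNCR1 and ENSG00000287781 with 100%. All of these but LINC00861, at 77.9%, and CASC19, at 86.4%, were covered to 100% in xxChIP H1.5 too. The miRNA genes MIR1205 and MIR1208, inside PVT1, lay wholly under xChIP H1.2 peaks, and AC090573.1 lay wholly under peaks of both xxChIP lists.

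The region held fewer peaks per Mb than the rest of the chromosome, and they were longer, least so in xChIP H1.2. There were 30.2 peaks per Mb in xChIP H1.2, 26.6 in xChIP H1.5, 19.2 in xxChIP H1.2 and 25.4 in xxChIP H1.5, against 50.5, 50.2, 47.0 and 43.0 in the rest of chromosome 8. The median peak length was 2437 bp in xChIP H1.2, 2948 bp in xChIP H1.5, 2953.5 bp in xxChIP H1.2 and 3491 bp in xxChIP H1.5. In the rest it was 2354, 2106.5, 1906 and 1785.5 bp. Peaks of at least 20 kb numbered 6, 4, 10 and 16 in the 5000000 known bp of the region, against 295, 50, 54 and 41 in the 137888922 of the rest. They held 42.6% of the covered bases of the region in xChIP H1.2, 31.6% in xChIP H1.5, 78.2% in xxChIP H1.2 and 67.0% in xxChIP H1.5, whereas in the rest of the chromosome they held 35.4%, 6.74%, 8.91% and 7.59%. Of 29 blocks of 5 Mb on chromosome 8, the region was the most covered in both xxChIP lists, number 23 in xChIP H1.2 and number 17 in xChIP H1.5.

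The longest peak of the whole xxChIP H1.2 list, 307527 bp at chr8:126953565-127261091, lay between TRIB1 and LRATD2 over the lncRNA gene LINC00861. Numbers 4 and 5 of that list were in the region as well. The first, chr8:128068674-128327532 with 258859 bp, lay upstream of POU5F1B over the lncRNA genes CASC19, CASC8, PCAT1 and PRNCR1. The second, chr8:129986613-130214810 with 228198 bp, lay downstream of PVT1 over the lncRNA gene CCDC26. None of the 10 long xxChIP H1.2 peaks and 16 long xxChIP H1.5 peaks in the region touched a protein-coding gene. The region held only 1.6 such genes per Mb, against 5.08 in the rest of chromosome 8. The share of long xxChIP peaks elsewhere that touch no such gene is not given here, so the count does not show an avoidance of genes. The xxChIP H1.5 list filled the same stretches in more pieces: its peaks covered 87.7%, 89.1% and 87.7% of these 3 xxChIP H1.2 peaks, and its longest peak in the region, 134508 bp at chr8:129976999-130111506, ranked 15 in its list.

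Between the 5 genes, the lists differed from stretch to stretch. From the left end of the region to TRIB1, peaks covered 42.3% in xChIP H1.2, 34.6% in xChIP H1.5, 13.3% in xxChIP H1.2 and 6.76% in xxChIP H1.5. The stretch from TRIB1 to LRATD2 was covered to 23.4% in xChIP H1.2, 20.6% in xChIP H1.5, 58.0% in xxChIP H1.2 and 48.4% in xxChIP H1.5. From LRATD2 to POU5F1B the values were 9.88%, 7.11%, 33.9% and 30.5%. From POU5F1B to MYC they were 16.8%, 10.7%, 9.66% and 4.32%, and from MYC to PVT1 44.5%, 32.0%, 16.3% and 0%. From PVT1 to the right end of the region they were 14.3%, 14.5%, 34.3% and 30.3%. Both xxChIP lists thus exceeded both xChIP lists in 3 of these 6 stretches, from TRIB1 to LRATD2, from LRATD2 to POU5F1B and downstream of PVT1, and both were below them in the other 3, which lie upstream of TRIB1 and on either side of MYC.

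The windows spread more widely than in the rest of the chromosome. The median window was covered to 12.5% in xChIP H1.2, 10.2% in xChIP H1.5, 18.2% in xxChIP H1.2 and 11.9% in xxChIP H1.5, against 19.4%, 14.5%, 12.5% and 11.2% in the rest. The region had 10, 16, 16 and 14 windows of 50 without a peak, which are 20%, 32%, 32% and 28%, against 0.507%, 0.217%, 0.941% and 2.61% in the rest. At the other end, 13 windows were covered to over 50% by both xxChIP lists, which is 26% of the region, 0.507% of the rest of chromosome 8 and 1.19% of 26989 windows on the other chromosomes. Both xChIP lists exceeded 50% in 3 windows around TRIB1 and MYC, which is 6% of the region, against 0.579% of the rest of chromosome 8 and 1.40% of the windows on the other chromosomes. A window above 50% in an xChIP list and an xxChIP list at once was rare everywhere, with 0 of 50 in the region, 0 of 1381 in the rest of chromosome 8 and 80 of 26989 elsewhere.

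**Figure D5:**
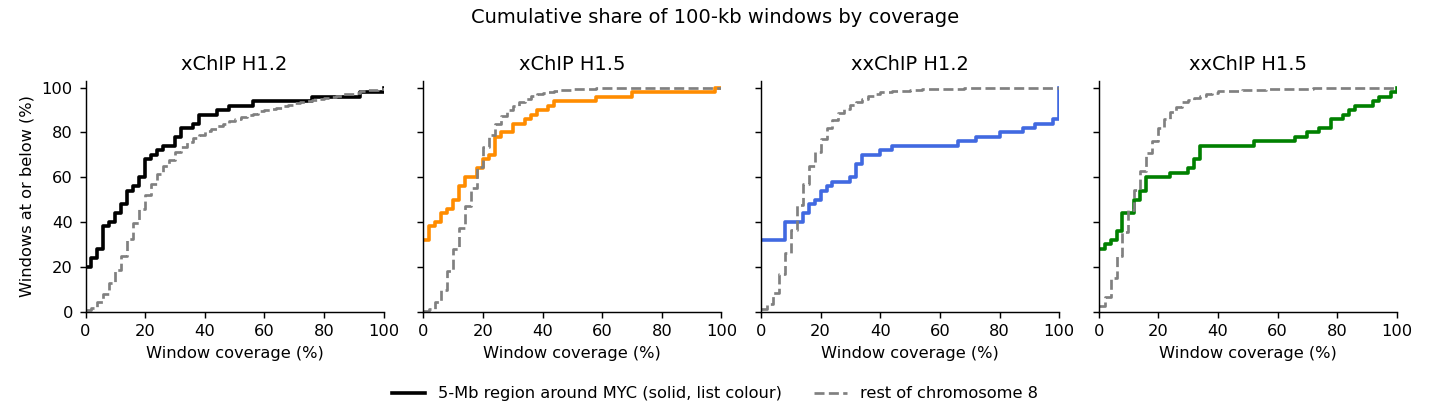
Cumulative share of 100-kb windows (y axis, percent) at or below a given peak coverage (x axis, percent), with 1 panel per list, the 50 windows of the region as a solid coloured line and the 1381 windows in the rest of chromosome 8 as a dashed grey line. In both xxChIP panels the solid line starts at 32% and 28% because of empty windows and runs far below the dashed line at high coverage; in the xChIP panels the lines are closer above 50%.

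Across the 50 windows, coverage by the 2 isotypes went together within a protocol, with Pearson's r of 0.934 for xChIP-seq and 0.974 for xxChIP-seq, against 0.486 and 0.689 over the 1381 windows in the rest of the chromosome. Between the protocols, r for H1.2 was 0.221 in the region and -0.432 in the rest, and Spearman's rho was 0.586 and -0.491. These are descriptions over neighbouring windows that share the same lists, and the windows without any peak in the 4 lists enter each of them. The GC content of the region, 40.6%, was close to the 40.2% of the rest of the chromosome, and its density of protein-coding genes was lower, 1.6 against 5.08 per Mb. Between windows, however, coverage fell with GC content in both xxChIP lists. In the region, r with GC was 0.358 in xChIP H1.2, 0.207 in xChIP H1.5, -0.452 in xxChIP H1.2 and -0.457 in xxChIP H1.5. In the rest it was 0.538, 0.0691, -0.400 and -0.335. Spearman's rho was 0.0687, -0.181, -0.507 and -0.486 in the region and 0.569, 0.0192, -0.499 and -0.450 in the rest, in the same order. The xChIP lists thus had no relation with GC in the region that held by both measures.

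The lists also shared larger parts of their bases in the region than in the rest of chromosome 8. Of the xxChIP H1.2 bases in the region, 74.9% lay in xxChIP H1.5 peaks, and of the xxChIP H1.5 bases 88.5% lay in xxChIP H1.2 peaks, against 40.7% and 46.4% in the rest of chromosome 8. For the xChIP pair the shares were 58.6% of H1.2 and 71.6% of H1.5, against 32.9% and 54.0%. Across protocols, 47.6% of the xChIP H1.2 bases lay in xxChIP H1.2 peaks and 27.6% the other way, against 12.2% and 21.8%. For H1.5 they were 39.1% and 21.9%, against 13.6% and 16.9%. Such shares depend on how much the other list covers. Outside the peak-free stretches described below, the lists covered 30.5% (xChIP H1.2), 25.0% (xChIP H1.5), 52.7% (xxChIP H1.2) and 44.6% (xxChIP H1.5). Those stretches were picked for having no peak in any list. Against these values, the shares within a protocol were above the value of the other list, and the shares across protocols were below it. The cover of the whole region was 19.1%, 15.6%, 32.9% and 27.8% in the same order. Against it, the shares within and across protocols were all above the value of the other list. The direction across protocols thus depends on the bases compared.

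Stretches of at least 50 kb without a peak in any of the 4 lists were concentrated in the region, which held 11 of them, while the rest of chromosome 8 held 2 and the other chromosomes together 54. With a minimum of 100 kb there were 9, 0 and 11. Of the 50 windows, 10 (20%) had no peak in any list, against 0 of 1381 in the rest of the chromosome and 17 of 26989 elsewhere. The 11 stretches took up 37.5% of the region. Over the remaining 3125 kb, which were picked by the absence of these stretches, coverage was 30.5% in xChIP H1.2, 25.0% in xChIP H1.5, 52.7% in xxChIP H1.2 and 44.6% in xxChIP H1.5.

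The longest, chr8:130694770-131001910 with 307141 bp, held GSDMC and most of CYRIB. The next, chr8:128393677-128689020 with 295344 bp, lay between the upstream part of POU5F1B and MYC. The third, chr8:125999528-126224692 with 225165 bp, held SQLE, WASHC5 and the start of NSMCE2. LRATD2 was in another, and one more, chr8:128860768-128964162, took up 103395 bp of the interior of PVT1. Several of their borders were sharp in more than 1 list. At the right end of the TRIB1 domain, the last peaks of all 4 lists ended within 40 bp of each other at 126547334. At 128689020, upstream of MYC, xChIP H1.2, xxChIP H1.2 and xxChIP H1.5 began again within 18 bp.

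The borders of the region fell in the outer peak-free stretches. The windows just inside the start and the end of the region had 0% in all 4 lists. The window just outside the start was covered to 31.8%, 12.0%, 4.36% and 0%, and the window just outside the end to 68.9%, 28.2%, 4.92% and 1.05%, with the xChIP lists before the xxChIP lists and H1.2 before H1.5. The outer borders of these stretches lay close to the same whole Mb positions as the borders of the region, 473 bp from the first and 1910 bp from the second. Of the 22 borders of the 11 stretches, these 2 were within 2000 bp of a whole Mb, and of the 112 borders of such stretches elsewhere, 0 were. A further border in the region lay just outside that distance, 2548 bp from a whole Mb. The borders were examined after the peaks had been seen, so the counts are a description only. The cause of the peak-free stretches and of these positions was not tested.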

How the data were processed

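Sequencing reads of 12 immunoprecipitated samples had been aligned by the authors to hg19 with Bowtie2, uniquely mapped reads were kept, and enriched peaks were called by MUSIC with default settings, and those of 3 replicates were merged. The authors deposited positions of the merged peaks and no score. Starts were read as 0-based and are printed 1-based. The gene annotation was GENCODE v44, as lifted to GRCh37 (hg19). From these positions, covered bases were summed with Python 3.11.15 and numpy 2.4.6, overlap was counted from 1 shared bp, and figures were drawn with matplotlib 3.10.9. The steps were tested on simulated data.

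The members and gene lists were chosen with earlier results of these data known. Named were the 5 genes, the other protein-coding genes reaching into the region, noncoding genes from TRIB1 to the end of PVT1 with at least 90% cover in a list, the MYC network and relatives of the other members, and the 3 genes whose cover was most like that of MYC. CCDC26 and, with under 90% cover, CASC8 and PCAT1 were named after their values were seen, for the long peaks that lie over them. The peak-free stretches, their borders, the blocks of 5 Mb, the whole-cover pattern of TRIB1 and MYC and the promoter composition were also examined after the peaks had been seen. Alternatives changed the measure, the comparison, the borders, the peak lengths and the definition of gene starts.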

Additional observations from a re-analysis of the deposited data

How the results depend on the processing

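Each list merges 3 replicates, so no replicate could be left out, and a change was judged against a 95% Wilson interval over windows, kb of gene or peaks. Neighbouring windows and kb can lie under the same peak and are not independent. The interval was therefore only a yardstick for the size of a change, not a measure of confidence. No paired analysis was possible because the lists merge the replicates. Among 44 alternatives for the ratio of the region to the rest of chromosome 8, 36 kept its direction and stayed within that interval, which is wide with 50 windows. A minimum peak length of 1000 bp left the ratio and the gene starts exactly as they were in every list, so its agreement carries no weight. Among these 36, xChIP H1.5 still moved from 0.968 to 0.530 by peak centres and 0.557 by the median of windows of 50 kb, xxChIP H1.2 to 1.45 by that of 100 kb and xxChIP H1.5 to 1.42 by that of 500 kb. By peak centres in place of covered bases the xxChIP ratio was 0.409 for H1.2 and 0.590 for H1.5, and with peaks under 20 kb it was 0.534 and 0.768, so the excess over the rest of the chromosome turned into a deficit in both xxChIP lists once the long peaks did not count by their length. By the median of windows of 50 kb it was 1.26 and 1.06, and by that of 100 kb 1.06 for xxChIP H1.5. Against the 5 Mb on either side, xChIP H1.5 changed to 1.13. The number of gene starts with a peak rose to 1 in xxChIP H1.2, by MYC within 2500 or 5000 bp and by PVT1 at any transcript start. In xxChIP H1.5 it rose to 2 within 2500 or 5000 bp, by the addition of TRIB1. By exons, POU5F1B was covered to 0.886% in xChIP H1.2, 0% in xxChIP H1.2 and 0.886% in xxChIP H1.5, and PVT1 to 11.6% in xChIP H1.2 and 1.59% in xChIP H1.5. By number of peaks, the share of xChIP H1.2 in xxChIP H1.2 was 70.2% and the reverse 63.5%, that of xChIP H1.5 in xxChIP H1.5 66.9% and the reverse 51.2%, and that of xxChIP H1.5 in xxChIP H1.2 77.2%. For gene starts, gene bodies and shared bases, 19, 15 and 3 other values were classed as unchanged, many of them without any movement. The 19 include a rise in xChIP H1.5 from 2 to 3 gene starts within 5000 bp or at any transcript start. Where no cause follows from the alternative itself, the cause was not tested. Without read numbers, depth could not be weighed.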

Other observations

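Among relatives of the other genes, TRIB3 and POU5F1 had a promoter peak in xChIP H1.2, and TRIB2 and LRATD1 had none in any list. This is 2 of 4, beside 48.2% of all protein-coding promoters in that list. TRIB3 was covered to 94.1% in xChIP H1.2 and 28.6% in xChIP H1.5, and POU5F1 to 87.4% and 11.4%. Neither POU5F1, the parent gene of POU5F1B, nor its promoter had an xxChIP peak.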
